A study of Ovis aries and Capra hircus and Bos taurus with 26 samples.

Results

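The peaks of H3K27ac (acetylation of lysine 27 of histone H3) on the autosomes of sheep and goat liver were compared by homologous chromosome. Members were all distinct intervals of the sheep and goat H3K27ac peak lists that lay on the 26 sheep or the 29 goat autosomes, and no measured value chose them. They numbered 246753 (113856 in sheep and 132897 in goats) of the 616400 peaks in the 17 lists of the series, and another 10624 sheep and goat H3K27ac peaks lay on other sequences. Livers of cattle, sheep and goats were assayed by ChIP-seq for H3K27ac and for H3K4me3 (trimethylation of lysine 4 of the same histone). Both species here were represented by 3 animals, A, B and C. The sheep were Texel and the goats Yunnan black goat, and in both species the animals were healthy adults aged 2 to 3 years. All 6 animals gave 1 library of each mark, made with the antibodies Abcam ab4729 (H3K27ac) and ab85850 (H3K4me3), and none received a treatment named in the labels or the methods. Each species was represented by a single breed and was aligned to its own genome build, Oar_rambouillet_v1.0 in the case of sheep and ARS1 in that of goats, so species, breed and build cannot be told apart. The 2 cattle H3K27ac libraries serve only to give the shares of the same chromosomes in a further species.

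H3K27ac is placed on histones by the acetyltransferases p300 and CBP and marks active promoters and active enhancers, whereas H3K4me3 marks promoters. In liver, distal H3K27ac sites without H3K4me3 are the usual sign of the enhancers that keep hepatocyte genes such as albumin, the apolipoproteins and the clotting factors on. Sheep and goats have nearly the same chromosomes: each goat autosome has a sheep counterpart, and the 3 largest sheep chromosomes are fusions of goat chromosomes 1 and 3, 2 and 8, and 5 and 11. The 26 sheep autosomes therefore gave 26 homologous groups, 23 of 1 chromosome to 1 and 3 joined ones. A group is written below as sheep number/goat number, so that 7/10 is sheep chromosome 7 with goat chromosome 10. The labelled tissue could not be checked against liver markers, since the lists name no genes and no annotation of either build was used.

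Goat livers had more autosomal H3K27ac peaks than sheep livers. The sheep libraries held 38317, 35693 and 39846 peaks in animals A, B and C, and the goat libraries 40457, 48735 and 43705. Every goat library was above every sheep library, although goat A exceeded sheep C by a small margin. The means were 37952 ± 2100 in sheep and 44299 ± 4171 for goats (SD, n = 3 each), a goat to sheep ratio of 1.17 and a log2 difference of 0.22 (two-sided exact permutation test, p = 0.1). With 3 libraries against 3, that test has 20 arrangements and cannot give a p below 0.1, so none of the single values compared here could pass 0.05. Of 55 single values compared in this way, 24 were at that smallest p, and the smallest Benjamini-Hochberg adjusted value was 0.229. The peaks covered 22.2 ± 2.09 Mb in sheep and 26.3 ± 2.02 Mb in goats, again without overlap (exact permutation test, p = 0.1).

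Over all peaks as deposited, the difference in number came with little difference in peak size. Median peak width was 489, 458 and 483 bp in sheep A, B and C and 483, 476 and 477 bp in goats A, B and C, and the groups overlapped (exact permutation test, p = 1). Goat peaks were wider without overlap among the 20000 strongest of each library, by 0.13 on the log2 scale, and by as much once peaks within 500 bp were merged (exact permutation test, p = 0.1 for both). Median fold enrichment over background, as the authors' peak caller gave it, was 3.87 to 3.91 in sheep and 3.82 to 4.03 in goats, which also overlapped. The lists hold no read numbers. According to the methods, paired-end libraries were reduced to a common number of reads before peak calling, which could not be checked here. Peaks as deposited lay closer together in goats: the median gap between neighbouring peaks was 16.8, 17.2 and 15.8 kb in the sheep animals and 15.2, 11.9 and 13.6 kb in the goats. The share of gaps of at most 10 kb was 38.3% ± 0.793 in sheep and 43.0% ± 2.88 for goats (SD, n = 3 each), without overlap. This difference of 4.71 points fell to 0.914 with 20000 peaks in each library and to 2.59 with peaks merged within 500 bp, and the species then overlapped (exact permutation test, p = 0.2 for both). The sheep autosomes spanned 2654 Mb and the goat autosomes 2464 Mb, from the start of each sequence to the end of its last peak of either mark. Per Mb of that span there were 14.4, 13.4 and 15.01 peaks in sheep and 16.4, 19.8 and 17.7 in goats.

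**Figure D1:**
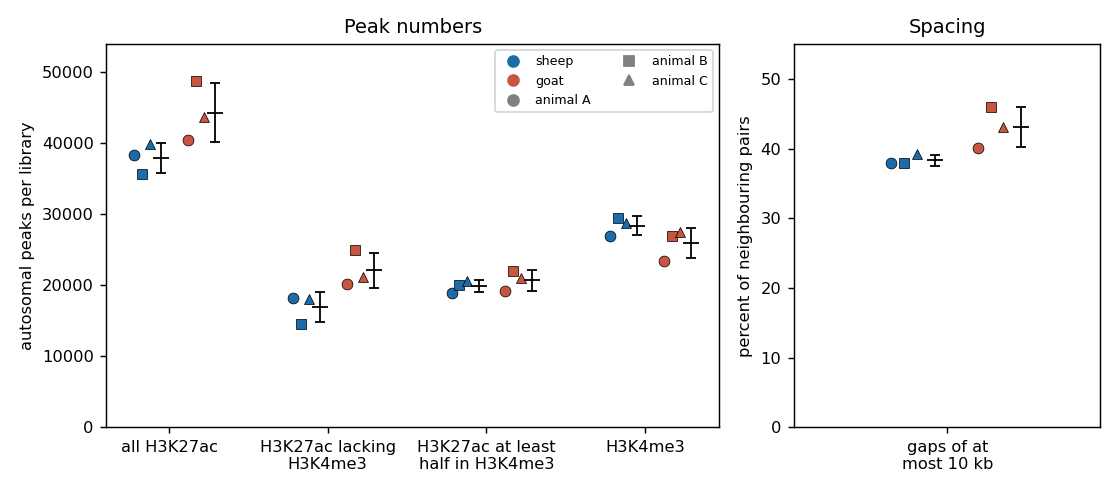
Autosomal peaks per library (left: H3K27ac in all and by H3K4me3 of the same animal, and H3K4me3 itself) and percent of neighbouring H3K27ac peaks at most 10 kb apart (right), with points for animals A, B and C and bars for the mean ± SD of 3. The goat libraries lie above the sheep libraries for all H3K27ac peaks, for those lacking H3K4me3 and for close neighbours, and overlap with them for H3K27ac peaks with H3K4me3 and for H3K4me3.

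The goat to sheep ratio was larger among stronger peaks. It was 1.198 for peaks with a −log10 q of at least 5, 1.24 at 10, 1.33 at 20, 2.04 at 50 and 3.60 at 100, and the libraries of the species did not overlap at any of these limits. At a −log10 q of at least 50, sheep A, B and C had 1083, 841 and 1378 peaks and goats A, B and C 1566, 1993 and 3175. At 100 the numbers were 42, 32 and 55 in sheep and 59, 100 and 305 in goats. Goat C was highest at both limits, although goat B had more peaks in all. Without goat C the ratio at 100 was 1.85, and leaving out any other library moved no ratio by over 1.5 times. A q value rises with read depth as well as with enrichment, and any part of depth that the stated common read number did not remove was not tested.

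Most of the difference in number lay in the enhancer category, with 5186 more peaks in the goat mean, against 872 more in the promoter category. The study set its categories on the consensus regions of a species, and here they were applied within each animal: a peak with no base of H3K4me3 was taken as lacking H3K4me3 (the enhancer category) and a peak covered over at least 50% of its length as having H3K4me3 (the promoter category), which left about 3% in between. Peaks lacking H3K4me3 numbered 18179, 14497 and 18067 in sheep A, B and C and 20190, 24955 and 21155 in goats A, B and C, a ratio of means of 1.31 without overlap. Peaks with H3K4me3 numbered 18910, 20098 and 20610 in sheep and 19142, 22016 and 21076 in goats, a ratio of 1.04, and the groups overlapped (exact permutation test, p = 0.4). The lacking class made up 44.5% ± 3.50 of sheep peaks and 49.8% ± 1.40 of goat peaks (SD, n = 3 each). The sheep shares were 47.4%, 40.6% and 45.3% and the goat shares 49.9%, 51.2% and 48.4%, so the species did not overlap, and sheep B stood below the other animals. That order turned when the 20000 strongest peaks of each library and mark were used, where goats lay 2.30 percentage points below sheep. Against the consensus H3K4me3 regions of the species goats lay 5.17 points above, and with peaks merged within 500 bp 4.51 points, and in both cases the species overlapped (exact permutation test, p = 0.2).

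The H3K4me3 lists of the same animals did not separate the species, and their order depended on the sequences counted. They held 26996, 29469 and 28825 autosomal peaks in sheep and 23483, 26952 and 27474 in goats, and the groups overlapped (exact permutation test, p = 0.2). Each sheep liver thus had 1.42, 1.21 and 1.38 H3K27ac peaks per H3K4me3 peak in animals A, B and C, and each goat liver 1.72, 1.81 and 1.59, without overlap, on the autosomes. Over all sequences the H3K4me3 lists held 29552, 32046 and 31240 peaks in sheep and 31491, 34312 and 38458 in goats, also with overlap (exact permutation test, p = 0.2). The H3K27ac peaks per H3K4me3 peak were then 1.35, 1.16 and 1.32 in sheep and 1.34, 1.48 and 1.19 in goats, so the species overlapped and the log2 difference was 0.064 (exact permutation test, p = 0.6). The separation of this ratio was thus a result for autosomal peaks alone. Between 21.4% and 28.5% of the goat H3K4me3 peaks lay on unplaced scaffolds, against 4.77% to 5.68% in sheep, and for H3K27ac the ranges were 4.13% to 4.58% and 1.32% to 1.67%. The sheep H3K27ac lists also had peaks on other assembled sequences, where the goat lists had 6 each. The autosomal share of H3K27ac peaks was thus close, 96.0% to 96.4% in sheep and 95.4% to 95.9% in goats. The share of H3K27ac peaks lacking H3K4me3 stayed apart over all sequences, with 46.6%, 39.9% and 44.7% in sheep and 49.02%, 50.5% and 47.5% in goats (exact permutation test, p = 0.1).

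The lacking peaks were also divided by their distance from the nearest H3K4me3 peak. Within 10 kb of one, sheep A, B and C had 5863, 5757 and 6880 lacking peaks and goats A, B and C 5943, 8834 and 7592, which overlapped (ratio 1.21). The ratio was 1.31 between 10 and 50 kb, 1.403 between 50 and 100 kb, 1.49 between 100 and 500 kb and 1.70 beyond 500 kb, and the species did not overlap in any of these bins. The farthest bin was small, with 212, 114 and 167 peaks in sheep and 321, 280 and 235 in goats. As shares of the lacking peaks the bins overlapped between the species throughout, so the rise of the ratio with distance was not separated from the spread between animals. Over all autosomal H3K27ac peaks, with or without H3K4me3, groups of at least 5 peaks with gaps of at most 10 kb were also counted. They numbered 563, 524 and 695 in sheep and 675, 1176 and 924 in goats, which overlapped.

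Nearly all strong peaks overlapped H3K4me3 in both species. Of the peaks with a −log10 q of at least 20, at most 2.89% lacked H3K4me3 in any sheep library and at most 5.20% in any goat library. With H3K4me3 the median width was 626 bp in sheep and 674 bp in goats, and without it 370 and 374 bp, and neither class separated the species. Lacking peaks were also found less often in other animals of the same species. On average 49.3% ± 6.11 of them were found again in another sheep and 55.4% ± 7.76 in another goat, against 83.9% ± 3.87 and 88.0% ± 1.62 of the peaks with H3K4me3 (SD, n = 3 each). Within each class the species overlapped.

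Merging the peaks of the 3 animals gave 51932 covered regions in sheep and 58749 in goats. In sheep 35.5% of them had a peak in 1 animal, 18.9% in 2 and 45.7% in all 3. In goats the shares were 32.4%, 18.6% and 49.0%. Regions of all 3 animals had a median width of 824 bp in sheep and 795 bp in goats, against 308 and 299 bp for regions of a single animal. The share of regions lacking H3K4me3 fell from 81.6% of those in 1 sheep to 29.2% of those in 3, and from 87.0% to 35.6% in goats. By a stricter rule, peaks with at least 50% of their length covered in another animal merged into 33946 consensus regions in sheep and 40118 in goats, with median lengths of 619 and 615 bp.

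Along the genome the same chromosomes were rich and poor in H3K27ac in both species. Density, in peaks per Mb of span as the mean of 3 libraries, followed a similar order over the 26 groups, with Pearson's r = 0.990 and Spearman's rho = 0.975 between sheep and goat. The rank was the same in 6 groups, and the largest shift was 4 ranks. This comparison is a description over 26 chromosomes that share their libraries and gene content. The densest group was 11/19, with 30.3 ± 1.63 peaks per Mb in sheep and 35.4 ± 2.82 for goats (SD, n = 3 each), followed by 24/25 with 25.2 and 30.4 and 14/18 with 22.9 and 29.02. These chromosomes are known as the gene-rich ones of ruminants. The sparsest was 10/12, with 8.59 ± 0.736 and 11.1 ± 1.25 peaks per Mb. Next in sheep were 16/20 with 9.92 and 6/6 with 10.2, and in goats 6/6 with 12.1 and 16/20 with 12.9. The goat mean was higher in 26 of 26 groups and the libraries did not overlap in 25 of them, the exception being 17/17. Over the 26 sheep chromosomes, peaks per Mb followed protein-coding genes per Mb (r = 0.945, rho = 0.928), where gene numbers came from the RefSeq annotation of another sheep build, ARS-UI_Ramb_v3.0. On sheep 11 there were 1.57 peaks per gene and on sheep 10 2.41.

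**Figure D2:**
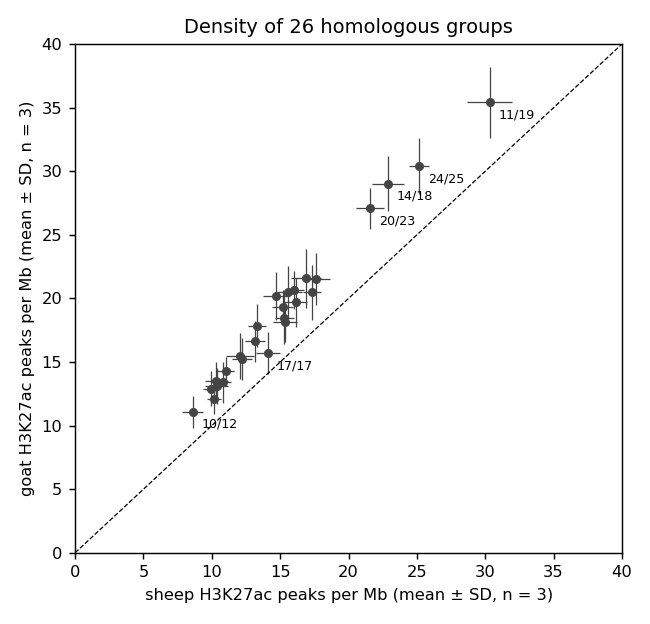
H3K27ac peaks per Mb of span in goats (vertical axis) against sheep (horizontal axis) for the 26 homologous groups, as means of 3 libraries with SD. All 26 points lie on the goat side of the line of equal density, from 10/12 at 8.59 and 11.1 to 11/19 at 30.3 and 35.4.

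The share of a library's autosomal peaks that lay on each group was then compared, which takes out the difference in totals. Most groups held the same share within a narrow range: the difference lay within 0.05 on the log2 scale in 19 of 26. By limma with Benjamini-Hochberg adjustment over the 26 groups, 7 passed 0.05 (26.9% of those tested), 4 with a higher share in goats (15.4%) and 3 with a higher share in sheep (11.5%). A further scaling, on the median group of each library in place of the total, put the median difference over the 26 groups at 0.065 in place of 0.0087 and gave 14 groups past the threshold, 13 of them higher in goats.

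With whole chromosomes as numbered, chromosome 17 differed most and was lower in goats. Between the outermost matched landmarks, with blocks matched to another chromosome counted on their sheep chromosome, its difference was −0.10, beside −0.11 for 6/6. It is the sheep chromosome of the fibrinogen genes FGA, FGB and FGG, which encode the chains of the main clot protein (placement from the RefSeq annotation of ARS-UI_Ramb_v3.0). Its peaks numbered 1169, 1088 and 1237 in sheep A, B and C and 1008, 1238 and 1084 in goats A, B and C, although goats had more peaks in all. As a share it held 3.05%, 3.05% and 3.10% of the sheep peaks and 2.49%, 2.54% and 2.48% of the goat peaks. No goat library came near the sheep range, and the log2 difference was −0.29 (SE 0.017, limma adjusted p = 2.29e-07). The 2 cattle libraries had 3.17% and 3.15% on cattle chromosome 17. The difference was similar for peaks lacking H3K4me3 (−0.26) and for those with it (−0.30), and H3K4me3 peaks themselves differed by −0.36, all past the threshold by limma.

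Chromosome group 12/16, counted on whole chromosomes as numbered, had the largest difference with a higher share in goats. Sheep 12 carries SERPINC1, which encodes antithrombin, and F13B, a subunit of clotting factor XIII. Its peaks numbered 1268, 1154 and 1307 in sheep and 1451, 1747 and 1608 in goats, or 3.31%, 3.23% and 3.28% against 3.59%, 3.58% and 3.68% of the libraries. The ranges were well apart, with a log2 difference of 0.14 (SE 0.018, limma adjusted p = 1.41e-04). It was 0.17 in the lacking class and 0.11 in the class with H3K4me3, both past the threshold. The cattle libraries had 3.44% and 3.53% on cattle 16.

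Group 6/6, which holds the albumin family (ALB, AFP, AFM and GC, the plasma carrier proteins made by the liver), had a lower share in goats. The sheep shares were 3.46%, 3.49% and 3.47% and the goat shares 3.18%, 3.22% and 3.23%, a log2 difference of −0.11 (SE 0.016, limma adjusted p = 1.94e-04). The animals of a species lay close together and the species far apart by comparison. Cattle had 3.18% and 3.12% on chromosome 6. The lacking class differed by −0.15 and the class with H3K4me3 by −0.11. The share of 7/10 was higher in goats, with 4.48%, 4.36% and 4.41% in sheep and 4.63%, 4.71% and 4.66% in goats (log2 difference 0.079, limma adjusted p = 0.00578). The lacking class passed the threshold there (0.11), and the class with H3K4me3 did not. Between the outermost matched landmarks, with blocks matched to another chromosome counted on their sheep chromosome, the difference of 7/10 over all peaks was 0.039. It then no longer passed (limma adjusted p = 0.1501).

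The remaining calls were small. On 15/15, whose sheep chromosome holds the apolipoprotein genes APOA1 and APOC3 and many olfactory receptor genes, the mean share was 3.16% in sheep and 3.30% in goats (log2 difference 0.062, limma adjusted p = 0.0180). On 13/13 the shares were 3.88% and 4.03% (0.058, limma adjusted p = 0.0381). On 20/23, the chromosome of the major histocompatibility complex, they were 3.17% and 2.99% (−0.086, limma adjusted p = 0.0392), and its libraries overlapped, since goat A (3.11%) lay above sheep A (3.09%). Over 18 alternative settings, 12/16 and 17/17 passed the threshold in 18, 6/6 in 17, 7/10 in 16, 15/15 in 10, 20/23 in 7 and 13/13 in 6. Without goat C, 4 groups passed in all.

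**Figure D3:**
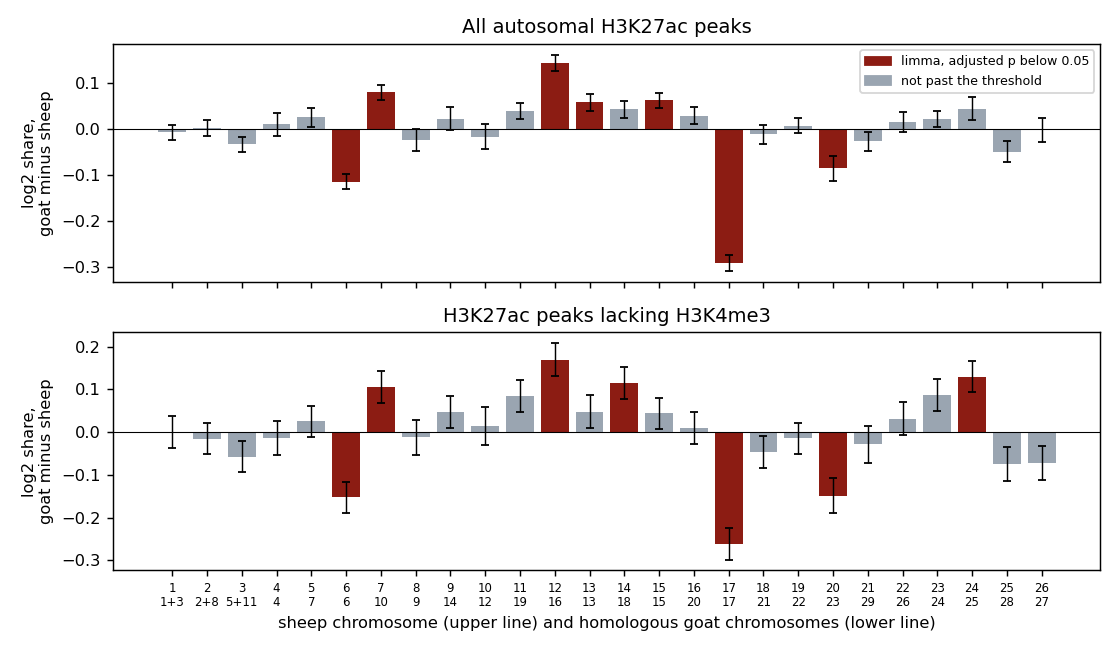
Difference in the share of autosomal H3K27ac peaks between goats and sheep (log2, goat minus sheep, with SE) for the 26 homologous groups, in all peaks (top) and in peaks lacking H3K4me3 (bottom), dark where limma passed the threshold. Group 17/17 lies farthest below 0 at −0.29 for all peaks and 12/16 farthest above at 0.14, while 19 of 26 groups stay within 0.05 of 0.

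Split by class, 7 of 26 groups passed the threshold among peaks lacking H3K4me3 (26.9%), with 14/18 (0.12), 24/25 (0.13) and 20/23 (−0.15) beside 6/6, 7/10, 12/16 and 17/17. Among peaks with H3K4me3, 5 of 26 passed (19.2%; 7.69% higher in goats and 11.5% higher in sheep), namely 6/6, 12/16, 15/15 (0.073), 17/17 and 23/24 (−0.069). Leaving out an animal moved these counts to between 3 and 7 for the lacking class, with 3 without sheep B and 4 without goat C. For the class with H3K4me3 the range was 2 to 10, with 8 without sheep A, 2 without sheep C, 10 without goat B and 3 without goat C. In the class lacking H3K4me3, 14/18 lost the call in 9 of 13 alternative settings, 7/10 in 7, 24/25 in 5 and 20/23 in 4. In the class with H3K4me3, 23/24 lost it or turned in 7 of 13, and 6/6 and 15/15 lost it in 5 each. Groups 14/18 and 24/25 passed the threshold in the lacking class alone, and the difference between classes was not tested. H3K4me3 peaks passed the threshold on 13 of 26 groups (50% of those tested), 6/6, 12/16 and 17/17 among them in the same direction as H3K27ac. For 20/23 and 13/13 the H3K4me3 differences were −0.059 and 0.045, both past the threshold, and for 7/10 and 15/15 they were 0.056 and 0.049 and missed it (limma adjusted p = 0.0513 and 0.0512).

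To place these differences along the chromosomes, H3K4me3 regions were used as landmarks, a step added after the data were seen. Runs of 5 consecutive H3K4me3 regions whose spacing agreed between the builds within a tolerance of 0.1 were matched, and 5132 runs were found, of which 4401 (85.8%) fell on the homologous chromosome. A chain of 4153 of them followed 14 chromosome pairs in the same direction and 15 in reverse. Between 93.6% and 94.4% of each library's H3K27ac peaks lay within the outermost runs. H3K27ac played no role in the matching.

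Density along the chromosomes was first compared in 100 equal windows a chromosome group, over which the landmarks themselves corresponded only in part. With the direction of each goat chromosome set by H3K4me3, the correlation of H3K27ac peaks per window between species had a median r of 0.63 and a median rho of 0.67 over the 26 groups. It ranged from 0.31 on 20/23 and on 26/27 to 0.88 on 13/13. The r of H3K4me3 peaks over the same windows was 0.43 on 20/23, 0.36 on 26/27 and 0.92 on 13/13, and lowest on 11/19 at 0.35, where that of H3K27ac was 0.36. With goat chromosomes turned around, r lay between −0.25 and 0.23. Animals of the same species correlated at 0.94 to 0.99 over the same windows. These values describe 100 windows a group that share libraries and gene density, and equal windows drift out of register where one build is longer.

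Matched sections gave a finer comparison. The chained runs cut the genomes into 493 sections of at least 2 Mb, with a median span of 3.53 Mb in sheep and 3.34 Mb in goats and a median of 70.5 peaks, and 489 had enough peaks to be tested as shares of each library. By limma, 105 passed the adjusted threshold (21.5% of those tested), 56 with a higher share in goats (11.5%) and 49 with a higher share in sheep (10%). Among peaks lacking H3K4me3, 75 of 462 sections passed (16.2%), 38 higher in goats (8.23%) and 37 higher in sheep (8.01%). Among peaks with H3K4me3, 77 of 475 passed (16.2%), 36 higher in goats (7.58%) and 41 higher in sheep (8.63%). The raw counts did not overlap in 64 of the 105, and in 218 of all 489 sections (44.6%). Most were modest, with a median size of 0.31 on the log2 scale, and 17 went beyond 0.5. H3K4me3 passed the threshold too in 34 of the 105, in 33 of them in the same direction, and not in the other 71, against 94 of all 489 sections (19.2%). Between 69 and 97 sections passed when an animal was left out, 69 without goat C, 71 without goat A and 73 without sheep B. When goat counts were scaled to the sheep span of each section, 162 passed, 131 of them higher in goats, and the median difference rose to 0.088 from 0.011. The library totals were left unscaled, so goat shares rose in every section that was shorter in goats. The larger number on the goat side cannot be told apart from this step. Scaled values of single sections below were made in the same way.

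Some of the largest section differences were shared by both marks. The section at sheep 8 from 35432366 to 42239799 and goat 9 from 32115447 to 37520643 had 41, 31 and 24 H3K27ac peaks in sheep A, B and C and 9, 9 and 11 in goats A, B and C (log2 share difference −1.87, SE 0.17, limma adjusted p = 7.02e-16). Its H3K4me3 peaks numbered 49, 54 and 44 in sheep and 16, 16 and 20 in goats. Sheep had more peaks of both marks there in every library, and the sheep section spanned 6.81 Mb against 5.41 Mb. These 10 sections, the 5 largest differences each way among those past the threshold, were picked after their values were seen.

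The largest difference on 17/17 lay in the section at sheep 32369277 to 52042234 and goat 27039348 to 41734867. It held 199, 191 and 213 peaks in sheep and 122, 157 and 123 in goats (−0.81, SE 0.061, limma adjusted p = 1.20e-20), and 105, 110 and 118 H3K4me3 peaks against 50, 68 and 60. The sheep section was 19.7 Mb long and the goat section 14.7 Mb, and with goat counts scaled to the sheep span the difference was −0.39. A block of 8 matched runs inside it, sheep 17 from 38289324 to 39128731, matched goat chromosome 16 from 69591853 to 70429206. That block carried 41, 37 and 39 H3K27ac peaks in sheep and 35, 42 and 41 in goats, which overlapped. The block lay on chromosome 17 of the sheep build and chromosome 16 of the goat build, and its single peaks were not matched between them. The goat side of the same block lay inside the section at sheep 12 from 72397360 to 76483999 and goat 16 from 65997659 to 71639328. That section had 57, 48 and 65 peaks in sheep and 126, 155 and 136 in goats (1.07, SE 0.074, limma adjusted p = 2.37e-22), over 4.09 Mb in sheep and 5.64 Mb in goats, and 0.61 once scaled to the sheep span.

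A block of this kind also lay in the named section of 7/10. The section at sheep 7 from 23206215 to 27983019 and goat 10 from 74766836 to 79537923 had 32, 22 and 21 peaks in sheep and 76, 94 and 91 in goats (1.58, SE 0.12, limma adjusted p = 1.15e-20). Inside it, goat 10 from 76221852 to 77260397 matched sheep chromosome 5 from 43551682 to 44597785 over 19 runs. The block had 48, 54 and 53 peaks in sheep and 43, 57 and 50 in goats, again overlapping. Whether these blocks differ in place between the genomes of the animals or between the builds cannot be told apart from peak lists.

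Counting the moved blocks with their sheep chromosome changed the chromosome results. Between the outermost runs, 6 groups passed the threshold as numbered, with 17/17 at −0.15, 12/16 at 0.13 and 7/10 at 0.077. With the blocks counted on their sheep chromosome 5 passed, 17/17 at −0.10 (limma adjusted p = 0.00287), 12/16 at 0.097 (0.00287) and 6/6 at −0.11 among them, and 7/10 at 0.039 no longer did (0.1501). With whole chromosomes but without the 4 sections that held such a block, 17/17 was at −0.21, 12/16 at 0.079 and 7/10 at 0.038, the last not past the threshold. Chromosome 17 also had unequal ends. Beyond the last matched run, sheep 17 carried 152, 145 and 159 peaks, while goat 17 carried 29, 33 and 35 before its first run, which is the matching end since the pair runs in reverse. Of the 11 tested sections of 17/17, 1 passed the threshold as higher in goats and 2 as higher in sheep. Over all sections 105 of 489 passed (21.5%).

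**Figure D4:**
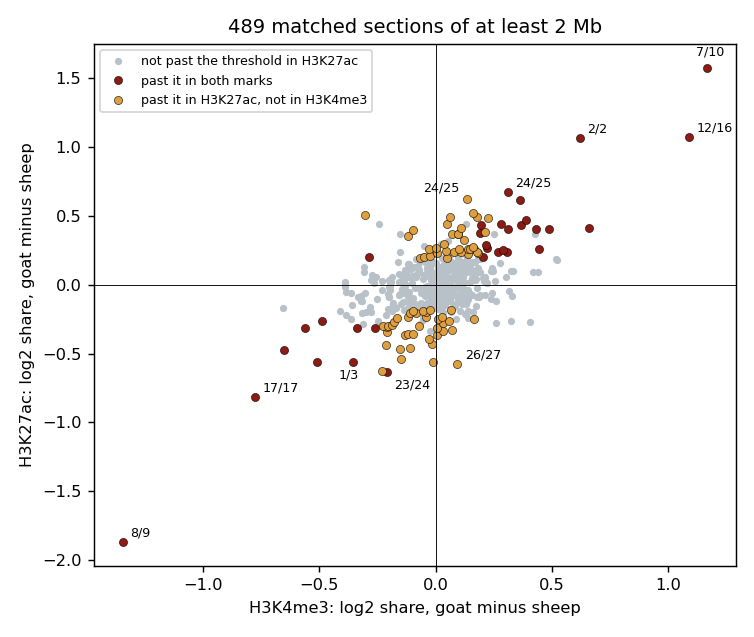
Difference in share (log2, goat minus sheep) of H3K27ac peaks (vertical axis) against that of H3K4me3 peaks (horizontal axis) for 489 matched sections, labelled by sheep/goat chromosome for the 10 named ones. The sections at 8/9, 17/17, 12/16 and 7/10 move in both marks, while one at 24/25 (0.63) and one at 26/27 (−0.58) pass the threshold in H3K27ac and not in H3K4me3.

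Both named sections of 24/25 had more H3K27ac peaks in goats than in sheep, with smaller differences in H3K4me3. At sheep 24 from 10685765 to 13101615 and goat 25 from 10315659 to 12740055 there were 22, 20 and 23 H3K27ac peaks in sheep and 38, 41 and 39 in goats (0.63, SE 0.14, limma adjusted p = 2.71e-04). H3K4me3 peaks numbered 16, 17 and 15 in sheep and 15, 16 and 17 in goats. The difference lay in peaks lacking H3K4me3, with 9, 4 and 9 such peaks in sheep against 23, 26 and 23 in goats. The sections had the same span, 2.42 Mb in each species. A second section of the same chromosome, sheep 24 from 21514241 to 25628998, had 41, 31 and 30 peaks against 60, 70 and 60 (0.68, SE 0.11, limma adjusted p = 2.03e-06), with 26, 29 and 26 H3K4me3 peaks against 27, 32 and 33 (0.31, limma adjusted p = 0.00890). H3K27ac per H3K4me3 peak passed the threshold as higher in goats in both sections, by 0.85 and 0.72 on the log2 scale.

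On 2/2, the section at sheep 2 from 200236169 to 206648430 had few peaks in either species, 11, 10 and 16 in sheep and 24, 37 and 31 in goats (1.07, SE 0.16, limma adjusted p = 1.74e-07). The remaining 3 named sections were lower in goats. At sheep 23 from 494232 to 3692801 the peaks numbered 67, 67 and 83 in sheep and 50, 59 and 53 in goats (−0.63, limma adjusted p = 4.74e-08), of which 29, 25 and 40 lacked H3K4me3 in sheep and 21, 24 and 15 in goats. At sheep 1 from 47833267 to 56472593 they numbered 36, 53 and 31 against 25, 36 and 28 (−0.62, limma adjusted p = 4.86e-04), and the raw counts overlapped. At sheep 26 from 31647666 to 36081702 they numbered 18, 22 and 24 against 13, 18 and 19 (−0.58, limma adjusted p = 0.00655), also with overlap. The last of these no longer passed without sheep B or goat A, and the section of sheep 1 no longer passed without sheep B. Scaled to the sheep span, the section of sheep 1 was at −0.37 and that of sheep 26 at −0.38, the latter not past the threshold.

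On the autosomes, the higher number of H3K27ac peaks per H3K4me3 peak in goats was found along most matched sections, which hold no unplaced scaffolds and so leave out the goat H3K4me3 peaks on them. The log2 ratio was higher in goats in 468 of 488 sections (95.9%), with a median of 0.35 and a range from 0.019 at the 5th to 0.67 at the 95th percentile. By limma 255 sections passed the threshold (52.3% of those tested), 253 of them higher in goats (51.8%) and 2 higher in sheep (0.41%). Sections share their libraries, so this count adds no replicates to the 3 animals of each species.

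Within gaps between matched landmarks whose lengths agreed within 2% in the builds, single peaks could be placed approximately in the other genome. There were 5833 such gaps, with a median length of 26.95 kb, a longest of 2885 kb and 324.6 Mb in all. In gaps over 25 kb a mismatch of 2% can exceed 500 bp. A lacking peak was taken as found when a peak of the other library lay within 500 bp of its matched position. Of the sheep peaks lacking H3K4me3, 49.1% to 62.7% were found in another sheep (mean 55.7% over 6 pairs of libraries) and 37.4% to 49.8% in a goat (mean 43.6% over 9 pairs). Of the goat peaks, 52.5% to 71.1% were found in another goat (mean 60.6%) and 28.5% to 36.6% in a sheep (mean 33.1%). Positions within 500 bp of a peak made up 1.75% to 2.39% of the gap length. The share found was higher within the species than between in 6 of 6 animals, by 9.78 to 16.2 percentage points in sheep and 23.8 to 32.3 in goats. The mean difference was 19.8 points (one-sided exact permutation of species labels, p = 0.1, the smallest these 20 arrangements allow, since swapping the species names gives the same value).

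Goat lists were longer, so a sheep peak had more goat peaks to match than the reverse, and the libraries compared share animals. Positions in the other species were interpolated over the gap, whereas those in the same species were read directly, and the part of interpolation in the difference was not tested on its own. In gaps of at most 25 kb the shares were 60.4% within and 52.9% between species for sheep peaks and 62.8% and 43.7% for goat peaks. For peaks with H3K4me3 the shares were 72.1% within and 68.5% between species for sheep and 72.3% and 62.8% for goats, a mean difference of 6.56 points. The gaps began and ended at H3K4me3 regions matched between the species, which ties peaks with H3K4me3 to the landmarks. The smaller difference therefore cannot be read as a contrast between the classes.

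**Figure D5:**
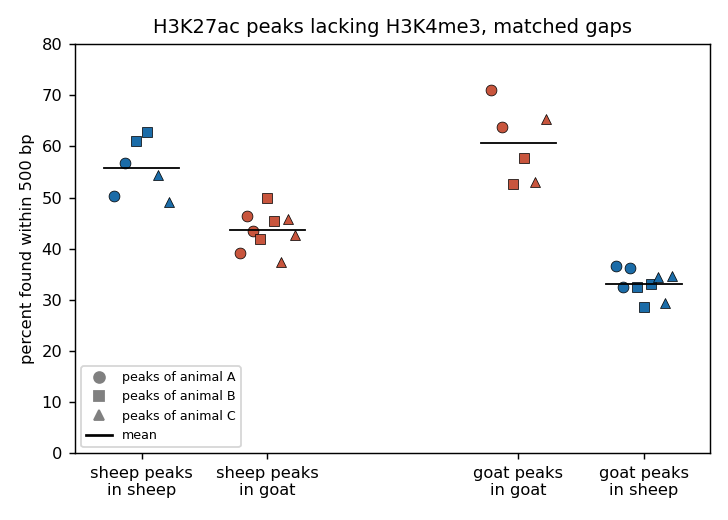
Percent of H3K27ac peaks lacking H3K4me3, in matched gaps, that had a peak within 500 bp in another library (vertical axis), by the species of the peaks and of the library searched (points, pairs of libraries, shaped by the animal of the peaks and coloured by the species searched; lines, means). Within-species means are 55.7% and 60.6%, and between-species means 43.6% for sheep peaks in goats and 33.1% for goat peaks in sheep.

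The strongest single regions overlapped H3K4me3 in both species. Regions were ranked by their poorest rank in −log10 q over the 3 libraries. In sheep the first was on chromosome 1 from 3017826 to 3018355 (530 bp, build Oar_rambouillet_v1.0), with a −log10 q of 730, 688 and 672 in animals A, B and C and rank 1 in each. In goats the first was on chromosome 19 from 3086 to 4064 (979 bp, build ARS1), with 600, 605 and 579 and rank 1 in each. H3K4me3 covered 100% of the sheep region and 98.8% of the goat region.

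Several top regions of goats lay at chromosome ends. The first and the third (chromosome 19 from 2496 to 2934) were within the first 5 kb of goat 19. The second (chromosome 7 from 108432857 to 108433305) and the fourth (chromosome 14 from 94670861 to 94671620) were 0.28 and 0.75 kb before the last peak end of their chromosomes. The fifth, on goat chromosome 3 from 101452137 to 101452558, lay within the chromosome and was covered over 91.5% by H3K4me3, where it ranked between 8133 and 10793 over the libraries. In sheep the other 4 were on chromosome 3 from 132342716 to 132343226, chromosome 1 from 3018654 to 3019119, chromosome 14 from 410575 to 411064 and chromosome 4 from 120997891 to 120998372, and H3K4me3 covered 100% of each. All 5 sheep regions ranked 15 or better in H3K4me3 of every animal. Such narrow regions at the top of both marks were not checked for repeats, because no genome sequence of the builds was used.

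In sheep the widest consensus region was on chromosome 2 from 40882038 to 40885235 (3198 bp), where −log10 q was 15.9, 19.9 and 18.5 and H3K4me3 covered 100%. The widest of goats was on chromosome 22 from 43573573 to 43576632 (3060 bp), with 19.1, 28.8 and 33.3 and covered over 60.9% by H3K4me3.

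The 3 densest windows of 1 Mb were found in each species from its own libraries, a choice that favours high counts in that species, so the counts of the other species are given as a description. In sheep they were chromosome 11 from 36000001 to 37000000, with 90, 81 and 81 peaks in A, B and C, then chromosome 20 from 29000001 to 30000000 with 82, 81 and 82, and chromosome 19 from 52000001 to 53000000 with 80, 79 and 85. The matched goat stretches, each about 1 Mb long, held 88, 93 and 88, then 76, 90 and 80, and 79, 93 and 82 peaks. In goats the densest was chromosome 25 from 26000001 to 27000000, with 88, 98 and 92 peaks, where the matched 1.11 Mb of sheep 24 held 76, 62 and 63. The next were goat 25 from 1000001 to 2000000, with 86, 92 and 88 against 75, 74 and 76 in sheep, and goat 5 from 56000001 to 57000000, with 84, 100 and 83 against 78, 83 and 82.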

How the data were processed

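Per the labels and the methods, read trimming by the authors used Trim Galore 0.4.0, alignment BWA 0.7.17 and duplicate removal Picard 2.25.0. Narrow peaks came from subsampled reads by MACS2 2.1.1 at q 0.01. Replicates were not stated to be pooled. The deposited lists give each peak's position, fold enrichment (a ratio) and −log10 of its p-value and q-value. These describe and rank peaks within a list. Rows with 1 interval were joined into 1 peak with its highest values. Per the methods, reads of the paired-end libraries were cut to 1 common number, which the lists cannot show, and precision rests on 3 animals a species.

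Groups follow species and mark in the titles, whose letter ties both marks to an animal. Letters are shared between species, and the labels do not state that they pair animals. Chromosome shares were fitted with limma 3.58.1 in R 4.3.3 (log2 share, empirical Bayes, Benjamini-Hochberg, threshold 0.05), sections with a variance trend, a prior count of 0.5 and a mean count of at least 10. Single values were tested by exact permutation over 20 arrangements. All p-values measure the spread between these animals. Limma and the overlap code were tested on simulated data, and the latter against bedtools 2.31.1. Other work used Python 3.11.15, numpy 2.4.6, pandas 2.3.3, scipy 1.17.1 and matplotlib 3.10.9.

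The members, lists and tests were chosen with earlier results of these data known. Named chromosomes were those past the threshold over all peaks, the 3 densest and 3 sparsest of each species and those of known gene content. Named regions were the 5 strongest by poorest rank and the 3 widest of each species, with the 3 densest 1 Mb windows. Of the wide regions only the widest of each species is described. Matched runs, sections and gaps, and the alternatives on them, and counts over all sequences were added after the data were seen. Alternatives were a q of 1e-05, the 20000 strongest peaks, every summit, peaks merged within 500 bp, peaks found in another animal, other scalings, a variance trend, a replicate block, other windows and leaving out each animal. Input samples were not used here.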

Additional observations from a re-analysis of the deposited data

How the results depend on the processing

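Of the single values, 6 were recomputed (peak number, width, lacking share, ratio to H3K4me3, peaks found in another animal and close gaps), and their direction held under every alternative run except for width, which was −0.022 (log2) without sheep B, with a leave-one-out range from −0.022 to 0.025, and the percent lacking H3K4me3, which was −2.30 points for the 20000 strongest peaks. Width differed by 0.0066 over all peaks and by 0.13 both for the 20000 strongest and with peaks merged within 500 bp. Leaving out an animal gave 0.15 to 0.28 for log2 peak number, 3.45 to 6.86 points for the lacking share, 0.28 to 0.40 for the log2 ratio to H3K4me3, 2.63 to 3.97 points for peaks found in another animal and 3.29 to 6.16 points for gaps within 10 kb, and the last was 0.914 for the 20000 strongest peaks and 2.59 with merged peaks, against 4.71. With peaks on all sequences, added after the data were seen, the log2 ratio to H3K4me3 was 0.064 with overlap, log2 peak number 0.23 and the lacking share 5.27 points. The 7 groups past the threshold became 4 for the 20000 strongest peaks, 11 per Mb of span, 14 centred on the median group, 14 for peaks found in another animal and 4 to 7 without an animal. For the lacking class, 7 became 3 for the strongest peaks, 4 when centred and 3 to 7 without an animal. For the class with H3K4me3, 5 became 2 at q 1e-05, 12 with every summit, 3 when centred, 9 with a variance trend and 2 to 10 without an animal. Sections numbered 162 per sheep span, with library totals left unscaled, and 69 to 97 without an animal. Without a variance trend the limma adjusted p of the named sections on 8/9, 17/17, 12/16 and 7/10 lay between 2.68e-05 and 5.79e-05. The median window correlation became 0.783 for fiftieths of the span, 0.610 for 1 Mb windows and 0.511 for lacking peaks, and 0.623 to 0.632 without an animal. Group 10/12 turned to 0.055 for peaks found in another animal, 11/19 to −0.093 and 20/23 to 0.011 per Mb, and for the strongest peaks 24/25 to −0.033 (lacking) and 23/24 to 0.027 (with). The causes were not tested. With the animal letter as a replicate block, exact sign-flip tests of the single values gave p = 0.25 at best, 4 groups passed over all peaks, 7 in the lacking class, 13 in the class with H3K4me3 and 102 sections. Deviations of same-letter animals from their species mean over 26 groups correlated at 0.03, −0.59 and −0.23, and those of different letters at −0.26 to 0.44. So few correlations cannot settle whether a letter stands for anything shared between the species, and the labels state no pairing. The common read number that the methods state could not be checked from the lists, and an effect of any remaining difference in depth was not tested.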

Other observations

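Matched runs also showed blocks in the direction opposite to the rest of their chromosome. The longest lay at sheep 5 from 12669494 to 14786921 and goat 7 from 94299309 to 96340135, with 38 runs over 2.12 Mb in sheep. H3K27ac peaks there numbered 113, 122 and 122 in sheep A, B and C and 131, 155 and 137 in goats A, B and C, while H3K4me3 peaks numbered 86, 100 and 96 against 85, 91 and 97. On sheep 14 from 52654148 to 53326755 and goat 18 from 50268842 to 50941011, a block of 14 runs held 41, 41 and 47 H3K27ac peaks in sheep and 51, 57 and 48 in goats. Shorter blocks of 6 to 8 runs were found on 3/5, 3/11 and 6/6. In the block of 6/6, H3K27ac peaks numbered 11, 14 and 13 in sheep and 17, 17 and 18 in goats, and in that of 3/11 they were 33, 39 and 40 against 34, 35 and 28. Whether these turns belong to the animals or to the builds cannot be told apart here.

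Outside the autosomes, the sheep H3K27ac lists had 640, 622 and 546 peaks on unplaced scaffolds and 954, 874 and 950 on other assembled sequences, and the goat lists 1820, 2101 and 2099 and 6, 6 and 6. The peaks found again most often were the strongest: of those with a −log10 q of at least 20, 96.4% ± 1.93 were found in another sheep and 97.5% ± 1.04 in another goat, against 39.1% ± 7.39 and 41.0% ± 8.53 of those below 5 (SD, n = 3 each).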
